A study of Homo sapiens with 24 samples.

Results

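The binding of S100A8 and S100A9 was described at 10 genes of the cornified envelope in the epidermal differentiation complex on chromosome 1q21: FLG, CRNN, LCE3E, LCE3D, IVL, SPRR1A, SPRR3, SPRR1B, SPRR2D, and SPRR2A. They were taken by name, out of 20090 protein-coding genes on chromosomes 1 to 22 and X, by a list drawn up with earlier results of these data known. The data are peak lists of Flag ChIP libraries from MCF10A–ER-Src cells, an immortalized, nontransformed human breast epithelial line that carries v-Src fused to the ligand-binding domain of the estrogen receptor. All cells carried ER-Src and also a retrovirally introduced, hygromycin-selected gene for either S100A8 or S100A9 with a Flag tag at the C terminus, so that the Flag antibody recognized the tagged and not the endogenous protein. TAM libraries came from cells kept for 24 hours in 1 μM 4-hydroxytamoxifen, which activates ER-Src, and EtOH libraries from cells given the ethanol vehicle. The groups held 2 S100A8 EtOH libraries and 3 libraries each of S100A8 TAM, S100A9 EtOH, and S100A9 TAM. The sample titles number the replicates, and the paper's methods call them biological without saying what was repeated.

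Cornified cells, the outermost layer of the epidermis, replace their plasma membrane by a cornified envelope, a shell of proteins that transglutaminases cross-link to one another. Involucrin (IVL) is an early scaffold of this shell, small proline-rich (SPRR) proteins act as cross-bridges within it, and late cornified envelope (LCE) proteins are added late in differentiation. Filaggrin (FLG) and cornulin (CRNN) belong to the S100-fused type proteins, which carry an S100-like calcium-binding domain at their N terminus. The genes for S100A8 and S100A9 lie in the same gene cluster. AP-1, a dimer of Fos and Jun family proteins that recognizes TGAGTCA, is a well-known regulator of several of these promoters in keratinocytes.

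Peaks with a q value of at most 1e-07 (−log10 q of 7 or more) were counted, and a peak belonged to a gene if its summit lay in the gene body or within 20 kb of it. Each EtOH library held between 1853 and 4609 such peaks and each TAM library between 21518 and 40735. Read numbers are not given, so the depth of the libraries is unknown, and deeper sequencing, stronger enrichment, and more binding in TAM cannot be told apart from the lists. The peak lists hold no expression values, so the labelled cell type was not checked, and the activity of the 10 genes was not analyzed here. All coordinates are in hg19 (GRCh37).

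At these 10 genes, the peaks were few and nearly all from TAM libraries. After genes that share a peak were allowed for, the 11 lists held 31 distinct peaks there, 5 in EtOH and 26 in TAM libraries. S100A8 EtOH replicates 1 and 2 held 1 peak each, and S100A9 EtOH replicates 1, 2, and 3 held 2, 0, and 1. Of the TAM libraries, S100A8 replicates 1, 2, and 3 held 1, 6, and 4 peaks, and S100A9 replicates 1, 2, and 3 held 6, 3, and 6. TAM libraries were thus higher than EtOH libraries with 1 exception, S100A8 TAM replicate 1, which held no more than an EtOH library although its whole list of 29381 peaks was the second largest of the 11. The 31 peaks merged into 12 regions, which are named here by the gene with the nearest transcription start site (TSS) and the distance from it in bp. Of these, 8 regions were called only in TAM, 2 only in EtOH, and 2 in both. By protein, 7 were called for both proteins, 1 only for S100A8, and 4 only for S100A9. All 12 summits lay outside annotated protein-coding genes, and 5 regions lay in the promoter window of a member (from 1500 bp before a TSS to 250 bp after it).

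**Figure D1:**
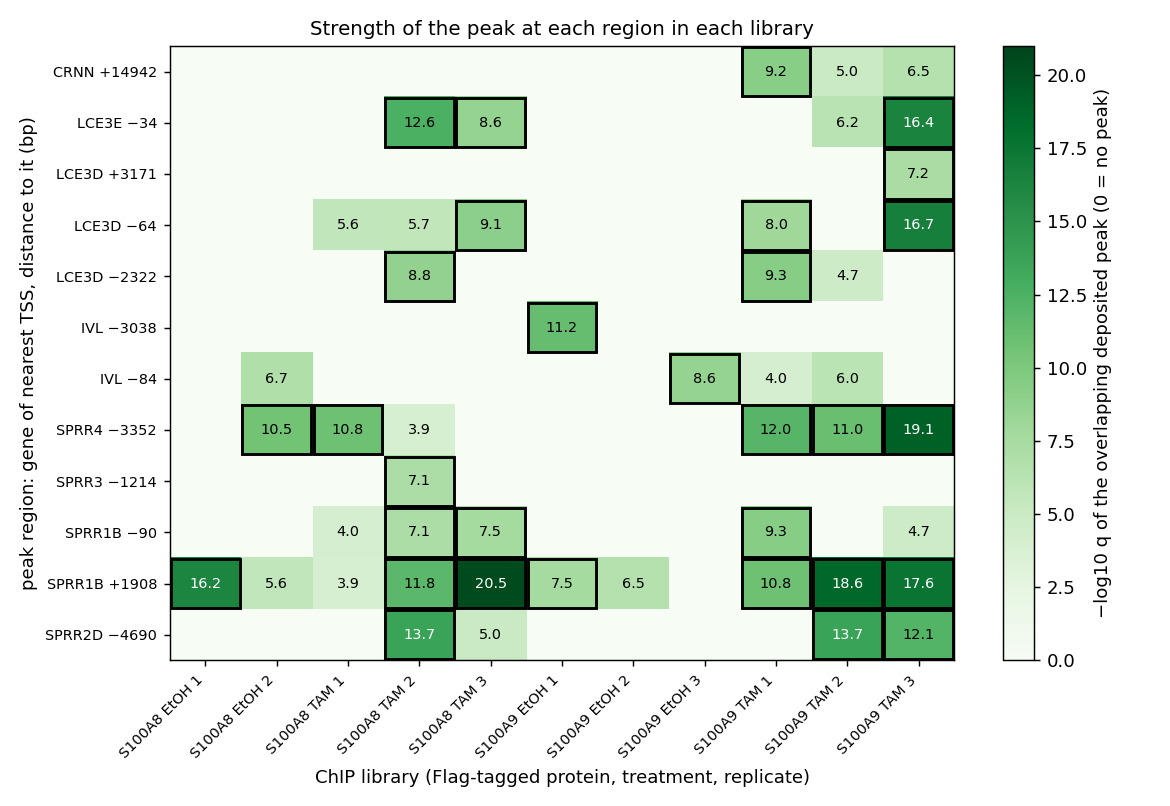
Each row is 1 of the 12 peak regions and each column 1 of the 11 ChIP libraries, with color and number giving the −log10 q value of the deposited peak that overlaps the region (blank, no peak in the list), and a black frame marking peaks with a −log10 q value of 7 or more. The frames are concentrated in TAM libraries other than S100A8 TAM replicate 1, the SPRR1B +1908 row has the most, with 7, and both IVL rows have frames only in S100A9 EtOH libraries.

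The region called in the most libraries lay just beyond the 3′ end of SPRR1B. SPRR1B encodes a small proline-rich envelope precursor on the plus strand at chr1:153003679-153005376. A peak at chr1:153005474-153005725, whose summit was 1908 bp downstream of the TSS, was called in 2 EtOH and 5 TAM libraries. The 7 summits fell within 40 bp of each other. The −log10 q values in the S100A8 libraries were 16.2 and 5.6 in EtOH and 3.87, 11.8, and 20.5 in TAM. Those in the S100A9 libraries were 7.52, 6.51, and 0 in EtOH and 10.8, 18.6, and 17.6 in TAM, where 0 means that the deposited list, which reaches down to a q value of 0.05, has no peak there. TAM and EtOH libraries overlapped, since S100A8 EtOH replicate 1 exceeded 3 of the 6 TAM libraries. Its fold enrichment of 12 over input stood at percentile 96 of the peaks in its library (the percentage of them with a lower value), and those of S100A8 TAM replicate 3 and S100A9 TAM replicate 2, 11.4 and 11.9, stood at percentiles 90.4 and 85.9. The mean over both proteins of the TAM minus EtOH difference in −log10 q was 6.1. It fell to 3.46 without S100A8 EtOH replicate 2 and was 8.74 without S100A8 EtOH replicate 1. This region, like the other 5 that were called in at least 2 replicates of a condition, met that requirement through TAM libraries only, so the choice of regions favoured higher values in TAM, and the differences are given without a test.

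SPRR1B was also the only SPRR gene among the 10 with a peak at its promoter in more than 1 library. This peak, at chr1:153003491-153003647, was called in S100A8 TAM replicates 2 and 3 and S100A9 TAM replicate 1, with summits 74, 90, and 104 bp upstream of the TSS. The −log10 q values were 4.01, 7.07, and 7.51 for S100A8 TAM and 9.34, 0, and 4.68 for S100A9 TAM, against 0 in all 5 EtOH libraries. The peak was a weak one wherever it was called, at percentiles of fold enrichment of 9.19, 31.1, and 4.47. The difference was 5.44. The DNA under both SPRR1B regions is printed because each summit has the AP-1 letters TGAGTCA, which read TGACTCA when they lie on the other strand, within 100 bp. They are given in capitals. They lie at −141 to −135 from the TSS in the promoter, 51 to 45 bp before the summit, and at 34 to 40 and 77 to 83 bp after the summit of the downstream region.
SPRR1B upstream, chr1:153003429-153003678, plus strand: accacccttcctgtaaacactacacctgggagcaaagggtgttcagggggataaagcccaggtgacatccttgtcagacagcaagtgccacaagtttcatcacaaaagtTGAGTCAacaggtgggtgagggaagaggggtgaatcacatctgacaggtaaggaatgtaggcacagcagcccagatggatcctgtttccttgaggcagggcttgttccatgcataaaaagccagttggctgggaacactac
SPRR1B +1908, 100 bp on either side of the summit, chr1:153005487-153005687, plus strand: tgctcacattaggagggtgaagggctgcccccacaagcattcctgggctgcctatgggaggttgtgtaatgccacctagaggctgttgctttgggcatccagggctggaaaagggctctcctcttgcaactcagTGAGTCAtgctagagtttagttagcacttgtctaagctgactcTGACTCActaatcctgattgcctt
The downstream window also holds the letters of a C/EBP motif, 39 to 32 bp before the summit, and of a CTCF motif, 30 to 19 bp before it. Among the 6 sites of these genes that were called in at least 2 replicates of a condition, it is the only one with the letters of either, which occur within 100 bp of the summit in 16.9% and 11.1% of all 30322 such sites.

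SPRR2D and SPRR2A, small proline-rich genes of another subfamily on the minus strand, had no promoter peak in any library. SPRR2D (chr1:153012208-153014407) lies next to SPRR1B and its 20-kb window holds the same peaks, so both genes have the same counts and are not separate evidence. Those counts were 1 and 0 in S100A8 EtOH, 0, 3, and 2 in S100A8 TAM, 1, 0, and 0 in S100A9 EtOH, and 2 in each S100A9 TAM library. The S100A9 TAM libraries were all above the S100A9 EtOH libraries, whereas S100A8 TAM replicate 1 was at 0. The mean difference was 1.42 peaks per library (p = 0.06, adjusted p = 0.0986, exact permutation test of the labels within each protein, two-sided). With each library left out in turn, it ranged from 1.08 without S100A8 TAM replicate 2 to 1.83 without S100A8 TAM replicate 1. SPRR2A (chr1:153028596-153029988) had 1 peak in S100A8 TAM replicate 2 and in S100A9 TAM replicates 2 and 3, and none in the other 8 libraries. All 3 are the same peak, at chr1:153019006-153019220, whose summit was 4690 bp upstream of SPRR2D, 10891 bp downstream of the SPRR2A TSS, and within reach of SPRR1B as well. Its percentiles were 80.4, 68.8, and 42.2, and its −log10 q values 13.7, 13.7, and 12.1, with 5.04 in S100A8 TAM replicate 3 and 0 in all EtOH libraries. The difference was 7.42. In this peak region, 27.2% of the 32-base words occur elsewhere in the genome. Only uniquely mapped reads were kept by the authors, and the part of repeated sequence in this peak was not tested. In both SPRR1B regions, no 32-base word is repeated. The 20-kb limit decides the SPRR2A count, since the 7 peaks downstream of SPRR1B lay between 22985 and 23025 bp from SPRR2A and were left out.

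SPRR1A (chr1:152956557-152958290), the closest relative of SPRR1B, had 1 peak in each of 6 libraries and no promoter peak. The peak numbers were 0 and 1 in S100A8 EtOH, 1, 1, and 0 in S100A8 TAM, 0 in each S100A9 EtOH library, and 1 in each S100A9 TAM library. The mean difference was 0.583 peaks (p = 0.16, adjusted p = 0.214, exact permutation test), and from 0.333 without S100A8 EtOH replicate 1 to 0.833 without S100A8 EtOH replicate 2 with each library left out in turn. In 5 of the 6 libraries, the peak was a distal one at chr1:152939687-152939903, which lies between 16755 and 16811 bp upstream of SPRR1A and is closer to SPRR4, another small proline-rich gene, 3352 bp upstream of its TSS. This was the only region of the 12 called in S100A8 TAM replicate 1. Its −log10 q values were 0 and 10.5 in S100A8 EtOH, 10.8, 3.88, and 0 in S100A8 TAM, 0 in each S100A9 EtOH library, and 12, 11, and 19.1 in S100A9 TAM. For S100A9, all TAM libraries exceeded all EtOH libraries, whereas for S100A8, the treatments overlapped. The difference was 6.85, and 4.23 without S100A8 EtOH replicate 1. The AP-1 letters lie 33 to 39 bp after this summit.
SPRR4 −3352, 100 bp on either side of the summit, chr1:152939672-152939872, plus strand: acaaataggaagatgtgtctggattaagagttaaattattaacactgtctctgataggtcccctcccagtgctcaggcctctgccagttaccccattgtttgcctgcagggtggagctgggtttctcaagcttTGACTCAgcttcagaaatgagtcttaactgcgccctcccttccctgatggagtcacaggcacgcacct
The promoter of SPRR1A is shown beside it as the case without a promoter peak. It has the AP-1 letters at −108 to −102, and it was identical to that of SPRR1B in 65.8% of the columns of a global alignment of the 250 bases upstream of each TSS.
SPRR1A upstream, chr1:152956307-152956556, plus strand: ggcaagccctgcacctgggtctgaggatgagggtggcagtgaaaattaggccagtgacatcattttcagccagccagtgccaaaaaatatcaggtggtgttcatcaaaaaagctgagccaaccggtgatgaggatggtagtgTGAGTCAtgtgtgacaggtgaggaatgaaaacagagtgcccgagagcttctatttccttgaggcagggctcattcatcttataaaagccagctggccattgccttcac
SPRR3 (chr1:152974223-152976332), a small proline-rich gene of internal stratified epithelia, had a peak only in S100A8 TAM replicate 2, which was also the sixth library with a peak at SPRR1A. It lay 1214 bp upstream of the SPRR3 TSS, at a −log10 q value of 7.07 and percentile 9.19. The difference of 0.167 peaks had a p of 1 in the same exact permutation test.

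LCE3E and LCE3D, neighboring late cornified envelope genes on the minus strand at chr1:152538130-152539256 and chr1:152551857-152552992, had peaks in TAM libraries only. No EtOH library had a peak within 20 kb of either gene, even among all deposited peaks. Both windows hold the same peaks, so the counts are shared: 0, 2, and 2 in S100A8 TAM and 2, 0, and 3 in S100A9 TAM. The mean difference was 1.5 peaks (p = 0.12, adjusted p = 0.165, exact permutation test), and 2 TAM libraries, S100A8 replicate 1 and S100A9 replicate 2, were at 0 like the EtOH libraries. Each gene had its own promoter peak. That of LCE3E, at chr1:152539199-152539538, was called in S100A8 TAM replicates 2 and 3 and S100A9 TAM replicate 3, with summits 34, 61, and 72 bp upstream of the TSS and −log10 q values of 12.6, 8.56, and 16.4. That of LCE3D, at chr1:152552951-152553318, was called in S100A8 TAM replicate 3 and S100A9 TAM replicates 1 and 3, with summits 69, 76, and 64 bp upstream and −log10 q values of 9.09, 8.02, and 16.7. Both promoters were called together only in S100A8 TAM replicate 3 and S100A9 TAM replicate 3. The difference between TAM and EtOH in −log10 q was 7.31 at LCE3E and 7.51 at LCE3D. A further peak 2322 bp upstream of LCE3D was called in S100A8 TAM replicate 2 and S100A9 TAM replicate 1, at percentiles 47.6 and 4.47, and another 3171 bp downstream of its TSS in S100A9 TAM replicate 3, at percentile 24.4.

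The LCE3E and LCE3D promoters are printed as a pair because they resemble each other, with 68.2% identical columns in the alignment, and because neither has the AP-1 letters.
LCE3E upstream, chr1:152539257-152539506, minus strand: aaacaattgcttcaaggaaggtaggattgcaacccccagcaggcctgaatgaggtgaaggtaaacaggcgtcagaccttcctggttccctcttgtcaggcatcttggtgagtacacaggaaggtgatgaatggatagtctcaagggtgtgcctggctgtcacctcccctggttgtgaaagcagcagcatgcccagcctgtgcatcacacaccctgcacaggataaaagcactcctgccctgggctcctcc
LCE3D upstream, chr1:152552993-152553242, minus strand: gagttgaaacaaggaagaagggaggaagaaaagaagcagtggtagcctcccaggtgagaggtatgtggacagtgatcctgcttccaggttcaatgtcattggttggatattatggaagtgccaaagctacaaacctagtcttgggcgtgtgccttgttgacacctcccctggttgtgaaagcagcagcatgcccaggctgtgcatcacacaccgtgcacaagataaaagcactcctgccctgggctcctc
In these promoter peaks, 1.62% and 1.48% of the 32-base words occur elsewhere in the genome, and their part in the result was not tested. Of the other motifs, LCE3E has the letters of a STAT3 motif (TTCNNNGAA) at −240 to −232, outside 100 bp of its summit, and LCE3D has none of those searched.

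**Figure D2:**
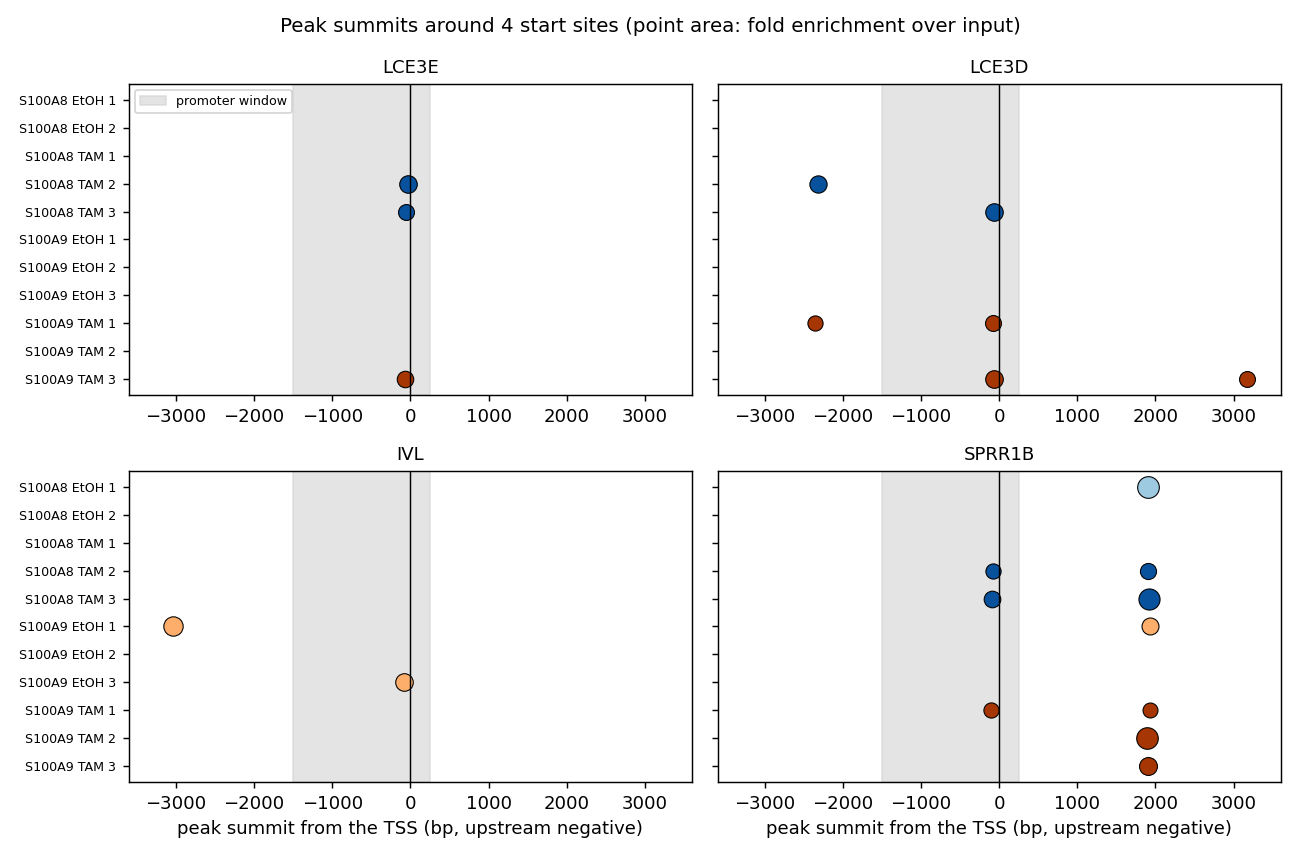
Each point is the summit of a peak with a q value of at most 1e-07 in 1 of the 11 libraries (rows), at its distance in bp from the TSS of LCE3E, LCE3D, IVL, or SPRR1B (horizontal axis, upstream negative), with light blue, dark blue, light orange, and brown for S100A8 EtOH, S100A8 TAM, S100A9 EtOH, and S100A9 TAM, point area proportional to fold enrichment, and the promoter window in gray. The promoter summits of LCE3E, LCE3D, and SPRR1B fall from 34 to 104 bp upstream in TAM libraries, and the 2 IVL summits belong to EtOH libraries.

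IVL, on the plus strand at chr1:152881022-152884362, went the other way from the other members, with 1 peak in S100A9 EtOH replicates 1 and 3 and none in the other 9 libraries, including all 6 TAM libraries. The mean difference was −0.333 peaks, which did not pass the test (p = 0.4, adjusted p = 0.461, exact permutation test). Genes with peaks in EtOH libraries only were rare: 37 of all 20090 genes, or 0.184%, had this pattern. The peaks were in 2 places. In S100A9 EtOH replicate 1, the summit was 3038 bp upstream of the TSS, at percentile 82.2, in a region where 85.2% of 32-base words occur elsewhere in the genome. In S100A9 EtOH replicate 3, it was 84 bp upstream, at percentile 50.9 and a −log10 q value of 8.57. At this promoter, weaker peaks were present in both treatments: the deposited lists hold peaks with −log10 q values of 6.73 in S100A8 EtOH replicate 2, 4 in S100A9 TAM replicate 1, and 6.01 in S100A9 TAM replicate 2. The treatments thus overlapped at the IVL promoter, and when every deposited peak was counted the difference at IVL turned to 0.667 in favor of TAM (adjusted p = 0.294, exact permutation test). The promoter is shown because the AP-1 letters lie at −123 to −117, 39 to 33 bp before the summit.
IVL upstream, chr1:152880772-152881021, plus strand: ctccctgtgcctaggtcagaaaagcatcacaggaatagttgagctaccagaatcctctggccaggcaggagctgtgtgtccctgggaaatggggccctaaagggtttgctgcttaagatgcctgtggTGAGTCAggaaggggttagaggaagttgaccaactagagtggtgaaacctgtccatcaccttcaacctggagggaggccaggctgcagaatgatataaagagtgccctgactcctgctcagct

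FLG and CRNN, the S100-fused type genes of the group, were nearly without peaks within 20 kb. FLG (chr1:152274641-152297715), whose product bundles keratin filaments, had 0 peaks in all 11 libraries and was not tested. Such genes made up 11.7% of all protein-coding genes. Among the deposited peaks, FLG had 1, in S100A8 TAM replicate 1. In the FLG gene body, which is a long array of repeats, 24.2% of 32-base words occur elsewhere, but in its promoter window none do. CRNN (chr1:152381719-152386739) had 1 peak, in S100A9 TAM replicate 1, which lay 14942 bp downstream of its TSS at percentile 40.7 (difference 0.167, p = 1, exact permutation test). The other 2 S100A9 TAM libraries had a weaker peak there, with −log10 q values of 5.04 and 6.51. Of the peaks nearest to the window's limit, 1 lay 20172 bp from CRNN, just outside it. The result for CRNN depended on this limit. Within 50 kb, CRNN had 4, 2, and 4 peaks in S100A8 TAM and 3, 2, and 3 in S100A9 TAM. The EtOH libraries then had 0 and 0 for S100A8 and 1, 0, and 1 for S100A9. FLG had none within 50 kb either.

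The numbers of peaks per gene rose from EtOH to TAM over the genome, and the differences at the 10 genes were not above this background. At an adjusted p of at most 0.05, 4934 of the 17731 genes with a peak in any library had more peaks in TAM (27.8%) and 0 had fewer. None of the 9 tested members was called, which leaves CRNN, LCE3E, LCE3D, IVL, SPRR1A, SPRR3, SPRR1B, SPRR2D, and SPRR2A with adjusted p values from 0.0986 to 1. The median difference was 0.583 peaks over the 9 members and 1.5 over all tested genes. A longer gene has a wider window, and the 9 tested members are short, from 1127 bp (LCE3E) to 5021 bp (CRNN). Gene length was not allowed for, and its part in this difference was not tested. A gene with peaks in TAM libraries only, as for 5 of the 9, entered the test through them. With 200 arrangements of the labels, the smallest p the test allows is 0.01. The calls depended on the peaks counted. Over all genes, the number of calls was 0 with q ≤ 1e-10, with equal numbers of top peaks, within 5 kb, in promoter windows, with presence of a peak, with the replicate block, and in 10 of the 11 fits that left out a library (6037 without S100A8 TAM replicate 3). In none of these was a member called, but where no gene at all was called, this says nothing about the members. The block, with a smallest p of 0.0625, allowed no call. In the others, a call needs a large share of all genes at or near the smallest p. When every deposited peak was used, LCE3E, LCE3D, SPRR1B, and SPRR2D were called (adjusted p = 0.0322 each, exact permutation test), against 45.1% of all tested genes. When the window was widened to 50 kb, 6 members were called (CRNN, LCE3E, LCE3D, SPRR1A, SPRR3, and SPRR2A), against 65.3% of all tested genes.

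**Figure D3:**
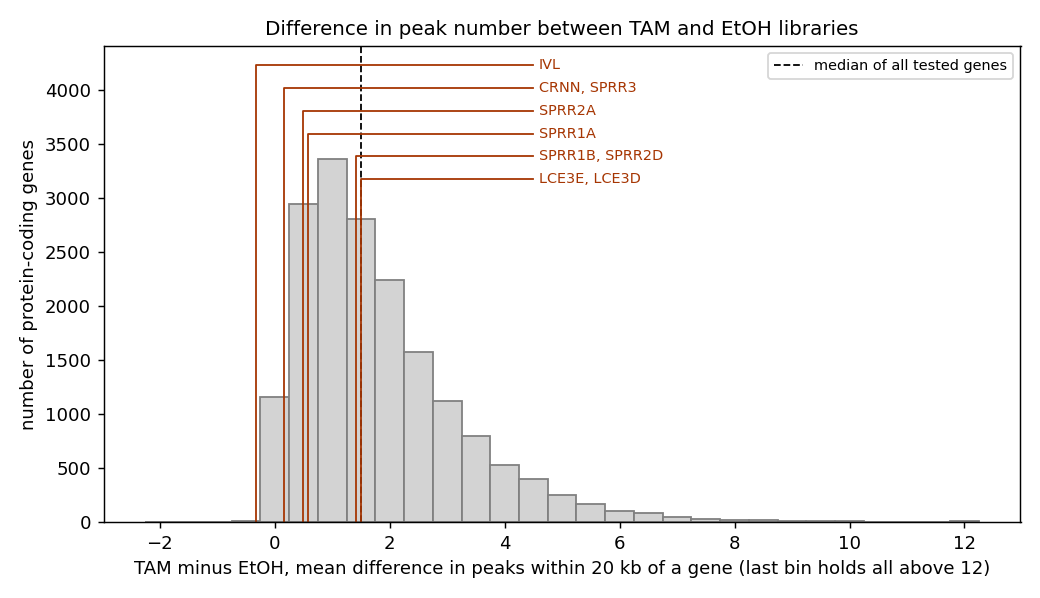
The histogram shows, for 17731 protein-coding genes, the mean over both proteins of the TAM minus EtOH difference in peaks within 20 kb (horizontal axis) against the number of genes (vertical axis), with the dashed line at the median of 1.5 and brown lines at the 9 tested members. IVL lies below 0 at −0.333, CRNN, SPRR3, SPRR2A, and SPRR1A lie between 0.167 and 0.583, and SPRR1B, SPRR2D, LCE3E, and LCE3D lie next to the median at 1.42 and 1.5.

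Of the 30322 sites called in at least 2 replicates of any condition, 6 lie at the 10 genes: LCE3E −34, LCE3D −64, SPRR4 −3352, SPRR1B −90, SPRR1B +1908, and SPRR2D −4690. Over all sites, 7047 were higher in TAM at an adjusted p of at most 0.05 (23.2%) and 1 was lower. None of the 6 was among them, but since the sites were chosen by calls in these libraries, and 68.9% of all sites were called in no EtOH library, nothing is read from these counts. Each of the 6 was called in 3 to 5 of the 6 TAM libraries, and none in all of them. Over all sites, 14.3% were called in every TAM library, so none among 6 is near that share and nothing is read from it.

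In the libraries taken singly, the share of the 10 genes with a peak was mostly below that of all genes. In EtOH libraries, 0 to 3 members had at least 1 peak, 1.4 ± 1.14 on average (SD, n = 5), or 14%, against 24.2% ± 6.12 of all genes. In TAM libraries, 1 to 7 members had 1, with a mean of 4.67 ± 2.16 (SD, n = 6), or 46.7%, against 72.1% ± 5.06 of all genes. The share of members exceeded that of all genes in 2 libraries, S100A8 TAM replicate 2, with 7 members against 69.2% of genes, and S100A9 EtOH replicate 1, with 3 against 23.7%. In the promoter windows, the mean was 0.2 members (2%) in EtOH and 1.67 (16.7%) in TAM, against 10.1% and 39.0% of all genes. When every deposited peak was counted, exactly 8 members had a peak in each TAM library, whose share over all genes was 88.1% ± 3.58, and 2 to 4 had a peak in each EtOH library (28% on average), against 64.9% ± 11.6 of all genes. When the same number of top peaks (1853) was taken from each list, the order of the treatments turned. The mean was then 0.8 members (8%) in EtOH and 0.333 (3.33%) in TAM, against 13.6% and 12.5% of all genes. The TAM mean came from S100A8 TAM replicate 3 alone, so nothing is read from this order. Members share peaks and lie in a single cluster, so these shares count few independent peaks. Gene length, which widens the 20-kb windows, was not allowed for.

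**Figure D4:**
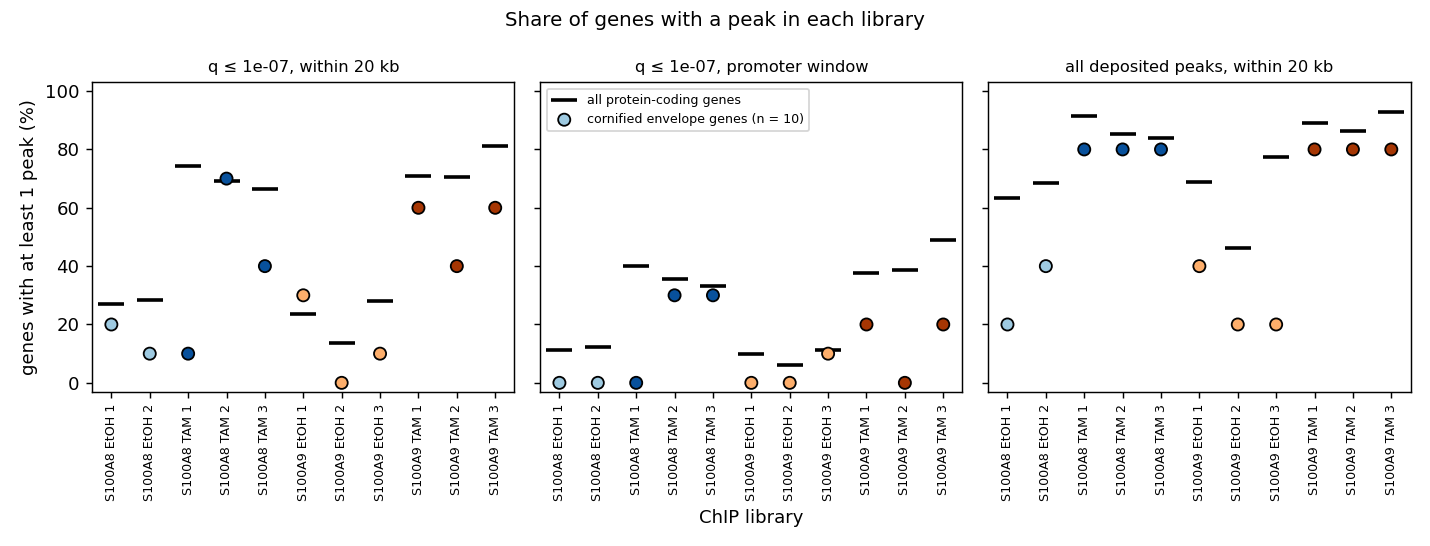
Colored points give the percentage of the 10 cornified envelope genes with at least 1 peak in each of the 11 libraries (blue for S100A8, orange and brown for S100A9, darker for TAM), and black bars the percentage of all protein-coding genes, for peaks with a q value of at most 1e-07 within 20 kb (left), in promoter windows (middle), and for all deposited peaks within 20 kb (right). The points lie under the bars in all but 2 libraries on the left, and on the right, they sit at 80% in every TAM library.

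The fold enrichments of the peaks were spread over the range of their libraries. The fold enrichment of the 5 EtOH peaks ranged from 7.36 to 12 (median 8.23), at percentiles from 15.6 to 96 (median 50.9). The 26 TAM peaks ranged from 5.73 to 11.9 (median 7.1), at percentiles from 3.93 to 90.4 (median 38.6). In each treatment, 1 peak exceeded the 90th percentile, and both of these were the peak downstream of SPRR1B.

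S100A8 and S100A9 were compared to ask whether the proteins differ at these genes. In an exact permutation test of the protein labels within each treatment, 0 of the 17731 genes (0%) and 0 of the 30322 sites (0%) were called in either direction, with 108 genes and 760 sites at an unadjusted p of at most 0.05. Since the smallest p is 0.01, a call needs a large share of all genes or sites at or near that limit. The absence of calls therefore does not show that the proteins are alike at any single gene. The largest differences among the 9 members were 0.333 peaks at IVL, higher for S100A9 (p = 0.6), and 0.167, in either direction, at 5 others (p = 1, exact permutation test). At the 6 sites, the differences in −log10 q ran from −1.29 at SPRR1B +1908 to 1.97 at SPRR4 −3352. A site needed calls in at least 2 replicates of a condition. All of the 6 but SPRR1B +1908 met this through the libraries of a single protein, SPRR4 −3352 through those of S100A9. The choice of sites could thus favour a protein, so these differences are given without a test. The 760 sites above carry the same limit. The difference between TAM and EtOH within each protein was 1.17 peaks for S100A8 and 1.67 for S100A9 at SPRR1B, 1.33 and 1.67 at LCE3E, 0.167 and 1 at SPRR1A, and 0.333 and 0.667 at SPRR2A. It was 0.333 and 0 at SPRR3, 0 and −0.667 at IVL, and 0 and 0.333 at CRNN, and LCE3D and SPRR2D had the values of LCE3E and SPRR1B. Whether these values differ between the proteins was not tested.

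At the promoters of the 10 genes, AP-1 letters lay within 100 bp of a peak summit at SPRR1B and IVL. In the 250 bases upstream of the TSS, TGAGTCA was found on either strand at 6 of the 10 genes, IVL, SPRR1A, SPRR3, SPRR1B, SPRR2D, and SPRR2A, and at 3.35% of all 20090 genes. All but IVL are related SPRR genes of a single cluster, so the 6 are not independent cases. For SPRR2D, whose most upstream TSS was used, the 250 bases before its other TSS hold the letters as well. Of these 6 promoters, SPRR1B had a peak in 3 libraries within 250 bp of the TSS and IVL in 1, and the other 4 had none. Of the promoters without the letters, those of LCE3E and LCE3D had a peak in 3 libraries each. Over the 6 sites, AP-1 letters were found within 100 bp of the summit at 3 (SPRR1B −90, SPRR1B +1908, and SPRR4 −3352), against 25.8% of all sites. The letters of an ETS motif (CGGAAG) and of a KLF/SP1 motif (CCCGCCC) occurred at none of the 6 sites or the 10 promoters, against 13.3% and 17.3% of all sites and 17.5% and 36.3% of all promoters. The KLF4-type letters CCACCC occurred at 5 of the 10 promoters, against 33.2% of all, and at 1 of the 6 sites, against 23.4%. These are matches of letters, not sites shown to be bound.

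The rest of the complex and other envelope genes were described by lists, which were not matched to the members or to each other for gene length. In the complex, 34 further genes (SPRR, LCE, S100-fused type, and others) gave 26 with a peak, of which 0 were called against 27.8% of all genes, with 6 at an unadjusted p of at most 0.05 in the exact permutation test, and a median difference of 0.583 peaks. The nearest to a call were PGLYRP4, LCE5A, and KPRP, named after their values were seen, with differences of 3.08, 1.92, and 1.75 (adjusted p = 0.0546 each, exact permutation test). Of the 5 other S100-fused type genes, HRNR, FLG2, and TCHHL1, also named after their values were seen, had no peak in any library, like FLG. Of 9 envelope proteins and cross-linking enzymes encoded elsewhere, 5 were called higher in TAM (55.6%, against 27.8% of all tested genes). Their median difference was 2.25, against 1.5 over all tested genes. The transglutaminases TGM1 and TGM3, which make the cross-links, gained 3.92 and 3.33 peaks per library, and corneodesmosin (CDSN), an adhesive protein of the cornified layer, 2.5 (adjusted p = 0.0359 each, exact permutation test). Of 7 tested genes for barrier lipids and proteases, 3 were called (42.9%, against 27.8% of all tested genes), and the median difference was 1.17. The 3 were the lipoxygenases ALOXE3 and ALOX12B, with differences of 6 and 3.33, and the protease inhibitor SPINK5, with 2.08. ALOXE3 and ALOX12B lie close together on chromosome 17 and their windows overlap, so they are not separate evidence. Of 8 regulators of keratinocyte differentiation, 2 were called (25%, against 27.8% of all genes), the transcription factors GRHL3 and TP63, with 5.75 and 3.67 (adjusted p = 0.0359 each, exact permutation test). Of the called genes named here, TGM3, CDSN, ALOX12B, and TP63 had no peak in any EtOH library. They entered the test through TAM libraries only, so nothing is read from their calls.

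The protein-coding genes whose peak numbers over the 11 libraries were closest to those of the 31 peaks at the cornified envelope genes were FOXK1 on chromosome 7 and NEDD8-MDP1 on chromosome 14, with summed absolute differences of 6 peaks. They were followed by ENSG00000254692, NEDD8, and GMPR2, all on chromosome 14, with 7 each. The windows of these 4 chromosome 14 genes overlap, and 10 genes in all had a sum of 7 or less.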

How the data were processed

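Peak lists of 11 Flag ChIP libraries from MCF10A–ER-Src cells were used, and Pol II and input data were not analyzed here. Proteins were cross-linked to each other before formaldehyde was added. Reads were mapped to hg19 by the authors with Bowtie2 and reduced to those with a unique position. Each library was then passed alone to MACS2, in narrow-peak mode, with its own input as background (versions are not given in the sources used here). The deposited fold enrichment is a ratio over input at the summit, and the deposited −log10 q (with −log10 p and a score, not used) is that of MACS2. No read numbers are given, so no interval that needs depth is printed.

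The deposited lists reach q = 0.05, and only peaks with q ≤ 1e-07 that lie on autosomes or X entered the counts. Genes, TSSs, and windows came from GENCODE 44 lifted to GRCh37, and sequences from the GRCh37 genome. Members and gene lists were chosen with earlier results of these data known. For each gene, the difference in peaks per library between treatments was averaged over both proteins and tested by exact permutation of the labels within each protein (200 arrangements, two-sided by doubling the smaller tail). Proteins were compared within each treatment likewise. The p values were adjusted by the Benjamini-Hochberg method over all genes with a peak, or over all sites. Sites were peaks merged over replicates by at least 1 bp, kept with at least 2 replicates of a condition, and merged over the 4 conditions. At a site, the largest −log10 q of any deposited peak was tested. The test was run on simulated peak numbers that lack the difference in list size between treatments, which checks its code and not its power at the members. Fold enrichment was ranked within each library and given as a percentile.

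All 10 members are named, with every region in a promoter window and every site at them. From each list, up to 3 called genes with the largest differences are named, and the 5 genes outside the lists with the most similar peak numbers. The alternatives were every deposited peak, q ≤ 1e-10, 1853 top peaks per library, windows of 5 and 50 kb and of promoters, presence of a peak, calls or ranks at sites, other site definitions, leaving out each library, and the replicate block. Analysis used Python 3.11.15, numpy 2.4.6, pandas 2.3.3, Biopython 1.88, and matplotlib 3.10.9.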

Additional observations from a re-analysis of the deposited data

How the results depend on the processing

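The 4934 genes with more peaks in TAM became 8774 with every deposited peak and 12240 within 50 kb. The number was 0 with q ≤ 1e-10, with equal numbers of top peaks, within 5 kb, in promoter windows, with presence of a peak, and with the replicate number as a block. When each library was left out in turn, it was 6037 without S100A8 TAM replicate 3 and 0 without any of the others (range 0 to 6037). Over the 16 alternatives without a call, 0 to 9568 genes had an unadjusted p of at most 0.05. Fewer arrangements remain when a library is left out (80 to 120, smallest p 0.0167 to 0.025) or with the block (32, smallest p 0.0625), so these fits say nothing about stability. The replicate numbers were not taken as pairs, since over all genes the deviations of same-numbered libraries correlated between −0.0304 and 0.0777 for treatments and between −0.116 and 0.00986 for proteins. The number of called members, 0, became 4 with every deposited peak and 6 within 50 kb. The number of sites higher in TAM, 7047, was 0 with calls instead of −log10 q, with ranks, with at least 1 replicate, with the block, and when any single library was left out, and 1441 with equal numbers of top peaks. Over these 15 alternatives without a call, 0 to 17771 sites had an unadjusted p of at most 0.05. The 6 member sites became 12 with at least 1 replicate, 3 with q ≤ 1e-10, and 0 with equal numbers of top peaks. The mean number of members with a peak in TAM libraries, 4.67, became 8 with every deposited peak and within 50 kb, 0.333 with top peaks, and 1.67 in promoter windows. That in EtOH libraries, 1.40, became 2.80, 3.40 within 50 kb, and 0.200 in promoter windows.

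Directions that turned belonged to differences that were not called. For TAM against EtOH, IVL turned to 0.667 with every deposited peak and 1.33 within 50 kb, and with equal numbers of top peaks, SPRR1A turned to −0.250 and SPRR1B and SPRR2D to −0.0833. By ranks, SPRR1B −90 turned to −1.34 and SPRR1B +1908 to −11.9. For S100A9 against S100A8, SPRR1B and SPRR2D turned to −0.417 with top peaks, SPRR1B to −0.0833 within 5 kb and −0.167 in promoter windows, LCE3E to −0.167 in both windows, SPRR1A to 0.0833 with q ≤ 1e-10, and SPRR3 to 0.167 within 50 kb. By calls, LCE3E −34 turned to −0.167 and SPRR1B +1908 to 0.0833, and by ranks, LCE3E −34 to −5.08 and LCE3D −64 to −1.18. When each library was left out in turn, the protein differences ranged from −0.333 to 0.167 for SPRR1A, −0.333 to 0.417 for SPRR1B and SPRR2D, and −0.167 to 0.583 for LCE3E and LCE3D. At sites, they ranged from −1.97 to 2.14 for LCE3E −34, −1.39 to 2.77 for LCE3D −64, −1.93 to 0.406 for SPRR1B −90, −3.93 to 1.35 for SPRR1B +1908, −0.393 to 3.32 for SPRR2D −4690, and −0.642 to 4.58 for SPRR4 −3352. The causes were not tested. The depth of the libraries is unknown, so the absence of a peak from a list does not show that a site was unbound.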
